A study of Mus musculus with 12 samples.

Results

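The interferon-induced GTPases examined here were 10 genes, namely the immunity-related GTPases Irgm1, Irgm2, Igtp, Iigp1, Tgtp1 and Ifi47 and the guanylate-binding proteins Gbp2, Gbp3, Gbp6 and Gbp7. They were taken by gene name from tables of 31340 gene rows, and each of the 10 names stood on a single row. RNA came from bone marrow cells of wild-type mice sorted as hematopoietic stem cells (HSCs). The 12 libraries formed 4 groups of 3. Ctrl libraries carry the control label. IR libraries came from mice exposed to ionizing radiation, and the Ab_IR and L_IR libraries came from irradiated mice that carry a further label, Ab or L, which the labels do not spell out. Irradiated cells were collected 3 days after exposure. All groups shared the wild-type genotype, and age, sex and the number of mice behind a library were not given in the sources used here. Since nothing in the labels says that libraries of a group came from separate mice, p-values measure only the spread between these libraries.

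Immunity-related GTPases and guanylate-binding proteins are transcribed in response to interferons, above all interferon gamma, and gather on membranes that enclose intracellular pathogens. Irgm1, Irgm2 and Igtp are regulators that sit on the membranes of the cell itself and hold the effector GTPases Iigp1, Tgtp1 and Ifi47 in their inactive state. Guanylate-binding proteins are larger relatives that coat vacuoles and bacteria and promote inflammasome activation. In HSCs, interferon gamma and type I interferons are known to drive exit from quiescence, and loss of Irgm1 in mice is known to impair HSC function.

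The members sit mostly in gene clusters (GRCm38, GENCODE M21). Gbp7, Gbp3 and Gbp2 lie close together on the plus strand of chromosome 3, between 142530342 and 142638008. Irgm1 (48861968 to 48871683, minus strand), Tgtp1 (48985327 to 48994172, minus strand) and Ifi47 (49076587 to 49096974, plus strand) share a stretch of chromosome 11, and Igtp (58199556 to 58207591) and Irgm2 (58199618 to 58222782) overlap on its plus strand. Gbp6 lies on chromosome 5 (105270702 to 105293698, minus strand), and Iigp1 lies apart from the other members. Close copies make some of these values uncertain. Of all stretches of 50 bases in Tgtp1 transcripts, 81.2% also occur in transcripts of other genes, mainly its neighbour Tgtp2, and for Gbp6 the share was 70.7%. The share was 12.7% for Gbp7 and 11.8% for Igtp, and at most 7.77% for the other members, so reads of Tgtp1 and Gbp6 in particular could have been split among copies.

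The promoters of the members were read for the letters that interferon signalling is known to use. Interferon-stimulated response elements (ISREs) are bound by IRF and STAT complexes, and gamma-activated sites (GAS) are named for their part in the response to interferon gamma. The search used an ISRE core, GAAANNGAAA on either strand, and a GAS-type palindrome, TTCNNNGAA, in the 250 bases before the RefSeq start (GRCm38.p6). RefSeq promoters were at hand for 8 members. The sequences below show the last 120 bases before the start, or, for Gbp2, the bases from 120 to 32 before it. Capitals mark the matches to either motif.
Igtp (chr11:58199436-58199555, plus strand): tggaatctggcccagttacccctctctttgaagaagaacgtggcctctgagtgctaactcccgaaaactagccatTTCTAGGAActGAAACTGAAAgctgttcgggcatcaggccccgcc
Irgm2 (chr11:58214857-58214976, plus strand): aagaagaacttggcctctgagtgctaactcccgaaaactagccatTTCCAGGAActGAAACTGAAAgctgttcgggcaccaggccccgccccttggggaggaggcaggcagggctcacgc
Tgtp1 (chr11:48992247-48992366, minus strand): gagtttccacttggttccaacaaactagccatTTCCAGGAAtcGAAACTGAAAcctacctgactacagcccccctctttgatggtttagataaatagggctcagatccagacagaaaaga
Irgm1 (chr11:48871421-48871540, minus strand): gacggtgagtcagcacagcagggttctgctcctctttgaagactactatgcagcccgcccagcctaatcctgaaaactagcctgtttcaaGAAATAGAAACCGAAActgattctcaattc
Gbp7 (chr3:142530216-142530335, plus strand): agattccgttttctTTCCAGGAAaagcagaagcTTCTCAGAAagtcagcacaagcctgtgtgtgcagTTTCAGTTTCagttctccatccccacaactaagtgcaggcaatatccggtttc
Gbp3 (chr3:142559924-142560043, plus strand): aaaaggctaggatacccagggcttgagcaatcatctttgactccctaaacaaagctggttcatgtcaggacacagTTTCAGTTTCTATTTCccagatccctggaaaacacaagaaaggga
Gbp2 (chr3:142620543-142620631, plus strand): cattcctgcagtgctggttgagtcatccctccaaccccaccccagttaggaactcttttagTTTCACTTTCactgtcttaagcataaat
Ifi47 (chr11:49076467-49076586, plus strand): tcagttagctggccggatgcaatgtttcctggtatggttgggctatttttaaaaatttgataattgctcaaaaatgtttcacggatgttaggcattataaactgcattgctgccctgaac
RefSeq gives Gbp3 a further promoter, not shown, so that 9 promoters of the 8 genes were searched. An ISRE core stood in 7 of the 9, all but that of Ifi47 and the further one of Gbp3, and in 2.98% of all 32851 promoters. Its first base lay 24 to 77 bases before the start. A GAS-type match stood in the promoters of Gbp7, Igtp, Irgm2 and Tgtp1, and in 7.02% of all promoters. In Igtp, Irgm2 and Tgtp1 the GAS-type match was followed after 2 bases by the ISRE core, an arrangement found in 5 of all promoters, the other two being those of Tgtp2 and Gm12185. This spacing was noticed in the sequences first and counted afterwards. Promoters of close relatives are copies of one another, so these matches are not separate observations, and a match is a run of letters and not a shown binding site.

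**Figure D1:**
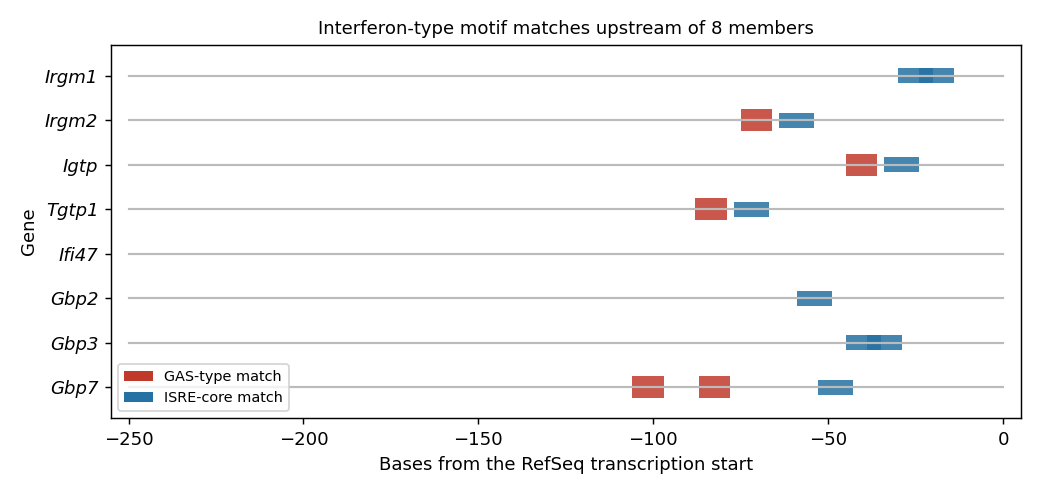
Position of motif matches before the start site of 8 members, in bases from the RefSeq start (x axis), with 1 line per gene. Blue bars are ISRE cores and red bars are GAS-type matches. ISRE cores begin 24 to 77 bases before the start in 7 genes, and Ifi47 has no match in the 250 bases searched.

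Expression was given as FPKM, fragments scaled to transcript length and to library size. Read counts cannot be had from FPKM, and sequencing depth is unknown. Levels of the members spanned a wide range. Igtp and Ifi47 were the most abundant and together made up 42.0% to 49.4% of the summed FPKM of the 10 genes, whereas Gbp6 reached at most 1.34 FPKM and Iigp1 at most 2.15 FPKM. The other 8 members were at 1 FPKM or more in all 12 libraries. The summed level was 102.54 to 113.94 FPKM in Ctrl, 58.05 to 61.07 FPKM in IR, 101.56 to 113.91 FPKM in Ab_IR and 112.34 to 118.32 FPKM in L_IR. Thus the 3 IR libraries lay far below the other 9, and the other 3 groups overlapped. Each of the 10 members had its lowest mean in IR, and 8 of them, as stated, were at 1 FPKM or more throughout. For all of these 8 members except Gbp7, every IR library was below all 9 other libraries, a pattern that 24.8% of 12699 expressed rows shared. Iigp1 showed this pattern too, but at 0.44 to 0.74 FPKM in IR it counted as expressed only through the other groups. Within a bulk sample, fewer cells of a type and less RNA per cell cannot be told apart.

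**Figure D2:**
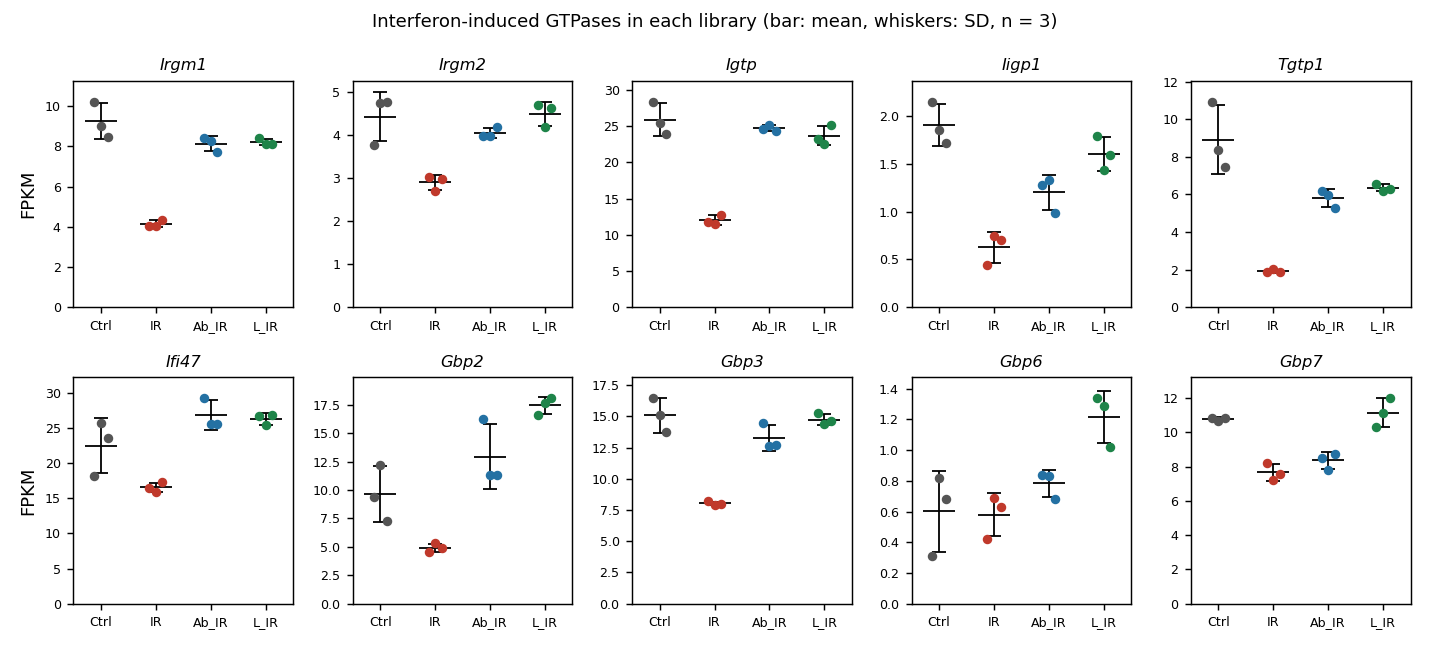
FPKM of each member (y axis, from 0) in the 12 libraries, by group (x axis). Points are libraries, horizontal bars are means and whiskers are SD (n = 3). Tgtp1 lies at 1.87 to 2.01 FPKM in IR and at 5.28 to 10.9 FPKM in the other groups, while Gbp6 overlaps between Ctrl, IR and Ab_IR.

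Some facts of the series bear on all these values. Ctrl replicate 1 stood apart, since 44.1% of its rows were at 0, where the range elsewhere was 24.7% to 27.3%. Nppa, an atrial hormone gene, was at 51.2 to 63.9 FPKM in 5 libraries, namely all of IR and both other Ctrl libraries, and at 0 to 0.26 FPKM in the other 7. This split coincides with the groups when Ab_IR or L_IR is set against IR, so that split and group cannot be told apart except through Ctrl replicate 1. Immunoglobulin genes held 9.0% to 11.1% of the FPKM sum in Ctrl, 17.2% to 18% in IR, 13.5% to 14.3% in Ab_IR and 21.9% to 22.6% in L_IR. Of 12 HSC markers, Hoxb5, Fgd5, Mecom, Slamf1 and Ctnnal1 stayed under 1 FPKM in all libraries, so the HSC label is only partly borne out by these tables.

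Irradiated and control cells were compared first, to see how the sorted cells differed 3 days after irradiation. The interferon-induced GTPases were lower in IR. All 8 members that were at 1 FPKM or more in every library fell at a limma adjusted p under 0.05, where 25.5% of 12072 rows tested did, and 2 of the 8, Igtp and Tgtp1, also exceeded a log2 difference of 1 in size, where 4.57% of rows did. The median log2 difference of the 8 was -0.82, and that of all rows was -0.05. For each of the 8, every IR library was below every Ctrl library, which held for 32.8% of rows. Log2 differences are on the scale of log2(FPKM + 1), which understates the change of genes with low levels.

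Among the regulators, Irgm1 was at 10.2, 9.04 and 8.48 FPKM in Ctrl and at 4.05, 4.04 and 4.35 FPKM in IR, and fell by 0.99 on the log2 scale (SE 0.084, adjusted p 2.88e-04). Igtp, the most abundant member in Ctrl, was at 28.41, 25.40 and 23.96 FPKM in Ctrl and at 11.82, 11.49 and 12.77 FPKM in IR (log2 difference -1.05, SE 0.083, adjusted p 2.24e-04). Both were lower in IR by a factor of 2.23 and 2.16, respectively, in mean FPKM. Irgm2 changed less, from 3.78, 4.74 and 4.78 FPKM in Ctrl to 3.03, 2.71 and 2.98 FPKM in IR (log2 difference -0.47, SE 0.099, adjusted p 0.0102).

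Tgtp1, an effector that loads onto pathogen vacuoles, fell most of the 10. It was at 10.9, 8.39 and 7.44 FPKM in Ctrl and at 1.89, 2.01 and 1.87 FPKM in IR, which is 4.64-fold lower in mean FPKM (log2 difference -1.75, SE 0.133, adjusted p 1.92e-04). Its copy Tgtp2 moved likewise, from 14.8 ± 4.33 FPKM to 3.26 ± 0.150 FPKM (SD, n = 3, log2 difference -1.86, adjusted p 5.14e-04), so the fall of the pair does not rest on how reads were divided between them. Iigp1, another effector, was at 2.15, 1.85 and 1.72 FPKM in Ctrl and at 0.44, 0.74 and 0.70 FPKM in IR (log2 difference -0.84, SE 0.115, adjusted p 0.00194). Iigp1 passed the filter on low values only through Ctrl, so it had to be lower in IR. Ifi47, the remaining effector, was at 18.1, 25.7 and 23.6 FPKM in Ctrl and at 16.41, 15.95 and 17.27 FPKM in IR (log2 difference -0.41, SE 0.128, adjusted p 0.0428). The gap between the lowest Ctrl and the highest IR library of Ifi47 was narrow, and its call was lost when any library other than Ctrl replicate 1 was left out (adjusted p 0.0945 to 0.131), whereas without Ctrl replicate 1 the log2 difference was -0.55 (adjusted p 5.01e-04).

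Of the guanylate-binding proteins, Gbp2, Gbp3 and Gbp7 decreased and Gbp6 did not pass a test. Gbp3 was at 16.5, 15.1 and 13.7 FPKM in Ctrl and at 8.19, 7.92 and 8.01 FPKM in IR (log2 difference -0.83, SE 0.079, adjusted p 4.54e-04). Gbp2, which is recruited early to bacterial and parasite vacuoles, was at 9.42, 12.2 and 7.29 FPKM in Ctrl and at 4.56, 5.30 and 4.90 FPKM in IR (log2 difference -0.82, SE 0.169, adjusted p 0.00932). Gbp7 changed least of the 3, from 10.9, 10.7 and 10.9 FPKM to 8.19, 7.20 and 7.59 FPKM (log2 difference -0.45, SE 0.067, adjusted p 0.00272). Gbp6 was at 0.31, 0.82 and 0.68 FPKM in Ctrl and at 0.42, 0.69 and 0.63 FPKM in IR, with overlapping groups, and did not enter the test. Without the filter on low values its log2 difference was -0.01 (adjusted p 0.974).

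Leaving out Ctrl replicate 1 confined the comparison to libraries that all contain Nppa. The 8 members were still lower in IR, with log2 differences of -0.92 for Irgm1, -0.98 for Igtp, -0.56 for Irgm2, -1.61 for Tgtp1, -0.82 for Gbp2, -0.77 for Gbp3 and -0.44 for Gbp7 besides that of Ifi47, so that Tgtp1 alone exceeded a log2 difference of 1 in size. The limma adjusted p was 0.0104 for Gbp2 and lower for the others. The share of all rows that passed without this library is not given.

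The next comparisons ask whether irradiated mice carrying the Ab or L label differed from IR. They share the IR libraries with each other and with the comparison above, so a high or low IR value enters all 3. In Ab_IR, 7 of the 8 members at 1 FPKM or more in every library rose at a limma adjusted p under 0.05, where 39.4% of 12067 rows did, and Gbp2 and Tgtp1 also exceeded a log2 difference of 1, where 5.11% of rows did. In L_IR all 8 rose, where 40.8% of 12163 rows did, and the same 2 genes exceeded a log2 difference of 1, where 4.09% of rows did. Median log2 differences of the 8 members were 0.75 in Ab_IR and 0.82 in L_IR, while those of all rows were 0.06 and 0.07. All libraries of the group lay above all IR libraries for 7 of the 8 in Ab_IR and for 8 in L_IR, which held for 41.4% and 43.1% of rows.

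**Figure D3:**
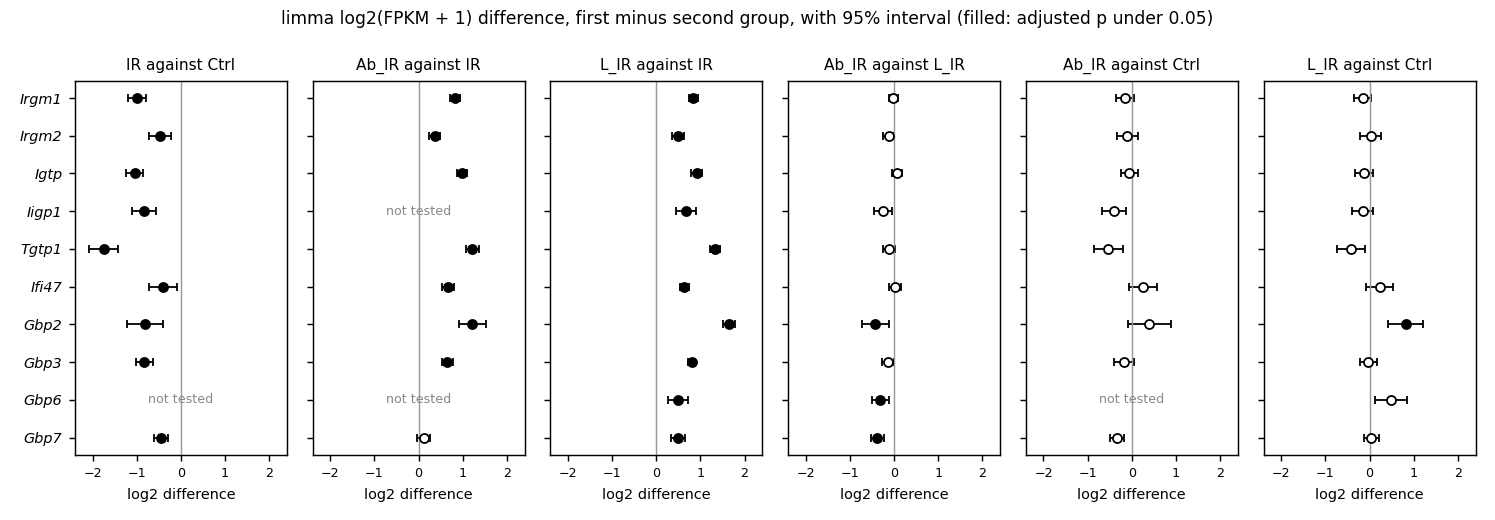
Log2(FPKM + 1) difference of each member, first group minus second (x axis), in 6 comparisons. Points are limma estimates, whiskers are 95% intervals and filled points have an adjusted p under 0.05. Filled points lie left of 0 in IR against Ctrl and right of 0 in both comparisons with IR, and the last 2 panels hold 1 filled point, Gbp2 in L_IR against Ctrl.

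Regulators were at similar levels in Ab_IR and L_IR, above IR in both. Irgm1 was at 8.44, 8.25 and 7.73 FPKM in Ab_IR and at 8.41, 8.11 and 8.13 FPKM in L_IR, which were log2 differences from IR of 0.83 (SE 0.050, adjusted p 7.85e-06) and 0.84 (SE 0.040, adjusted p 3.76e-06). Igtp was at 24.7, 25.1 and 24.4 FPKM in Ab_IR and at 23.3, 22.6 and 25.1 FPKM in L_IR, or 2.06-fold and 1.97-fold above IR in mean FPKM (adjusted p 2.24e-06 and 8.09e-06). For Irgm1 and Igtp every library of both groups lay well above every IR library. Irgm2 was at 3.98, 3.98 and 4.18 FPKM in Ab_IR and at 4.70, 4.18 and 4.62 FPKM in L_IR (log2 differences 0.37 and 0.49, adjusted p 5.56e-04 and 2.58e-04).

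Of the effectors, Tgtp1 rose to 6.20, 5.96 and 5.28 FPKM in Ab_IR and to 6.57, 6.20 and 6.30 FPKM in L_IR, which was 3.02-fold and 3.31-fold above IR in mean FPKM (log2 differences 1.22 and 1.33, adjusted p 3.83e-06 and 7.24e-07). All 6 of these libraries nevertheless lay below the lowest Ctrl library, at 7.44 FPKM. Ifi47 was at 29.3, 25.6 and 25.6 FPKM in Ab_IR and at 26.7, 25.4 and 26.8 FPKM in L_IR (log2 differences 0.66 and 0.64, adjusted p 5.89e-05 and 1.05e-05). Iigp1 was at 1.28, 1.33 and 0.99 FPKM in Ab_IR and at 1.79, 1.43 and 1.59 FPKM in L_IR, again with no overlap with IR. Iigp1 was too low to be tested in Ab_IR against IR (log2 difference 0.44 and adjusted p 0.0225 without the filter) and entered L_IR against IR only through L_IR (log2 difference 0.68, adjusted p 6.20e-04).

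Gbp2 rose most in L_IR. It was at 16.2, 11.3 and 11.3 FPKM in Ab_IR and at 16.6, 17.6 and 18.1 FPKM in L_IR, which was 2.63-fold and 3.55-fold above IR in mean FPKM (log2 differences 1.22 and 1.64, adjusted p 1.40e-04 and 8.13e-07). One Ab_IR library thus reached nearly the L_IR level and the other two did not. Gbp3 was at 14.4 to 15.2 FPKM in L_IR and at 12.63 to 14.45 FPKM in Ab_IR (log2 differences from IR of 0.80 and 0.66, adjusted p 2.09e-06 and 4.47e-05). Gbp7 behaved differently in the 2 groups, at 8.53, 7.82 and 8.75 FPKM in Ab_IR and at 10.33, 11.14 and 12.01 FPKM in L_IR. Its Ab_IR libraries overlapped IR (log2 difference 0.11, 95% interval -0.03 to 0.26, adjusted p 0.132), whereas its L_IR libraries did not (log2 difference 0.49, adjusted p 4.68e-04). Gbp6 was at 0.84, 0.83 and 0.68 FPKM in Ab_IR and at 1.34, 1.29 and 1.02 FPKM in L_IR. Gbp6 entered L_IR against IR only through L_IR (log2 difference 0.49, adjusted p 0.00307), a call that quantile normalization removed (adjusted p 0.0884), and it was not tested in Ab_IR against IR.

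With the Nppa split as a term in a limma fit of all 12 libraries, a term that rests on Ctrl replicate 1, the 8 members stayed above IR in both groups. Gbp7 did not pass in Ab_IR (log2 difference 0.10, adjusted p 0.454), and the other adjusted p-values were at most 0.00464. The share of all rows that passed in this fit is not given for these comparisons. Tgtp1 was then 0.80 above IR in Ab_IR and 0.91 in L_IR on the log2 scale, Ifi47 was 1.09 and 1.06 above it and Irgm2 0.64 and 0.76 above it. Tgtp1 thus came out smaller, and Ifi47 and Irgm2 larger, than without the term. Gbp2 and Ifi47 then exceeded a log2 difference of 1.

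Ab_IR and L_IR were also set against each other. Of the 8 members at 1 FPKM or more in every library, 2, namely Gbp2 and Gbp7, were lower in Ab_IR at an adjusted p under 0.05, a share near the 19.8% of 12194 rows that were lower. Gbp3 did not pass (adjusted p 0.0871). No member exceeded a log2 difference of 1 in size, which 0.533% of rows did in either direction. Gbp7 was lower by 0.38 on the log2 scale (95% interval -0.53 to -0.23, adjusted p 0.00412) and its Ab_IR libraries lay below all L_IR libraries. So did those of Gbp2, which makes 2 of the 8, against 26.7% of rows. Gbp2 was lower by 0.42 (95% interval -0.72 to -0.12, adjusted p 0.0365), but this call was lost under 9 of 17 alternatives, among them the omission of any 1 library except Ab_IR replicate 1. Gbp6, tested only through L_IR, was lower by 0.31 (adjusted p 0.0237), a call lost under 6 of 16 alternatives. The other 7 members had adjusted p-values of 0.064 to 0.846. The 95% intervals of the difference were -0.12 to 0.09 for Irgm1, -0.05 to 0.17 for Igtp, -0.11 to 0.16 for Ifi47 and -0.25 to 0.03 for Tgtp1. Immunoglobulin genes took up more of the L_IR than of the Ab_IR libraries, and leaving them out moved the median log2 difference of all rows from 0.006 to -0.11. In that setting 5 of the 8 members at 1 FPKM or more in every library were lower in Ab_IR, where 34% of 11942 rows were, among them Gbp2 at -0.56, Gbp7 at -0.51 and Gbp3 at -0.28. Igtp at -0.08 (adjusted p 0.315) and Irgm1 at -0.14 (adjusted p 0.0798) did not pass.

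Both groups were then set against Ctrl. In Ab_IR limma found 0 of the 8 members past an adjusted p of 0.05, a threshold that 2.1% of 12134 rows passed in either direction. Every Ab_IR library was nevertheless below every Ctrl library for Gbp7, Irgm1 and Tgtp1, 3 of the 8, where 17.6% of rows showed this. Before adjustment, 2 of the 8 had a p under 0.05 and lower values, as did 11.4% of rows. They were Gbp7 (p 0.00227, adjusted p 0.077) and Tgtp1 (p 0.00709, adjusted p 0.126). Iigp1, outside the 8, had a p of 0.00925 (adjusted p 0.14). The intervals remained wide, from -0.86 to -0.20 for Tgtp1, -0.50 to -0.17 for Gbp7 and -0.26 to 0.13 for Igtp. In L_IR, Gbp2 was higher than in Ctrl (log2 difference 0.82, adjusted p 0.0314), 1 of the 8, where 4.76% of 12251 rows were higher. That call was lost without any 1 of the L_IR libraries (adjusted p 0.116 to 0.131). Without Ctrl replicate 1, Gbp7 was lower in Ab_IR (log2 difference -0.33, adjusted p 0.0434) and Tgtp1 was lower in L_IR (log2 difference -0.28, adjusted p 0.0344), besides Gbp2. With the Nppa term, 6 of the 8 passed in each of these comparisons, as did 58.8% of rows in Ab_IR and 54.3% in L_IR. In Ab_IR 5 of them were lower, with Tgtp1 at -0.81, and Ifi47 was higher at 0.54. In L_IR Irgm1, Igtp and Tgtp1 (-0.70) were lower, and Gbp2 (0.82), Ifi47 (0.51) and Irgm2 (0.20) were higher.

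Ordered by their means, Irgm1, Gbp3, Iigp1 and Tgtp1 ran from IR through Ab_IR and L_IR to Ctrl, and Igtp from IR through L_IR and Ab_IR to Ctrl. Gbp2 and Gbp6 instead ran from IR through Ctrl and Ab_IR to L_IR. For Irgm1, Igtp, Gbp3, Irgm2 and Tgtp1 the step from IR to the next group passed the test (adjusted p 5.56e-04 for Irgm2 and lower for the others), and no later step between neighbours did. For Gbp7 no step between neighbours passed (adjusted p 0.077 to 0.76).

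The profile of the members over the 12 libraries, as the mean of their log2(FPKM + 1) values, was compared with 7145 other genes whose mean was 5 FPKM or higher. Genes with names of the predicted kind, such as Gm or Rik names, were left out. Profiles were centred and divided by their SD, and likeness was the root mean square difference, where 0 is identical. Closest were Gria3 (0.131), a glutamate receptor subunit, the MHC class II genes H2-Eb1 (0.157) and H2-Aa (0.175), Usp11 (0.185), a deubiquitinase, and Cd93 (0.189), a receptor of endothelial and progenitor cells. Among the members themselves Gbp3 lay closest to the mean profile (0.175), and Gbp7 (0.637) and Gbp6 (0.957) farthest.

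The remaining genes of these families were counted from a list of 20 related GTPases, 5 of which, namely Gbp2b, Gbp10, Gbp11, F830016B08Rik and Irgc1, stayed under 1 FPKM. Counts here cover the genes at 1 FPKM or more in every library of both groups compared, since the others were tested mainly through the group where they are high. In IR against Ctrl 0 rose and 3 of 8 fell, where 25.5% of all rows did, namely Tgtp2, Gm12250 (log2 difference -1.25, adjusted p 4.72e-04), a locus beside Igtp that GENCODE annotates as a processed pseudogene, and Gbp5 (-0.51, adjusted p 0.0115), a guanylate-binding protein. The antiviral GTPase Mx1 was at 2.03 ± 0.76 FPKM in Ctrl and 1.39 ± 0.361 FPKM in IR (log2 difference -0.33, adjusted p 0.238). In Ab_IR against IR, 3 of 7 rose and 0 fell, where 39.4% of all rows rose, with Tgtp2 at 1.14 and Gm12250 at 0.92. In L_IR against IR, 7 of 9 rose and 0 fell, where 40.8% of all rows rose, with Tgtp2 at 1.26 and Gm12250 at 1.12. Mx1 (1.39 FPKM in IR, 4.92 FPKM in Ab_IR and 6.62 FPKM in L_IR on average) and Mx2 (0.343, 1.67 and 1.83 FPKM) were under 1 FPKM in some or all IR libraries and are given by their levels only.

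Between Ab_IR and L_IR, 7 of 9 such related GTPases were lower in Ab_IR and 0 were higher, where 19.8% of all rows were lower. Gbp9 was at 3.13, 2.13 and 2.23 FPKM in Ab_IR and at 5.0, 4.41 and 5.34 FPKM in L_IR (log2 difference -0.77, adjusted p 0.00239). The giant GTPase Gvin1 was at 5.94, 5.25 and 5.45 FPKM in Ab_IR and at 9.47, 9.78 and 9.94 FPKM in L_IR (log2 difference -0.71, adjusted p 1.18e-04), and the related Gm4070 was lower by 0.68. Gbp9, Gvin1 and Gm4070 did not pass a test in Ab_IR against IR (adjusted p 0.23, 0.706 and 0.924).

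**Figure D4:**
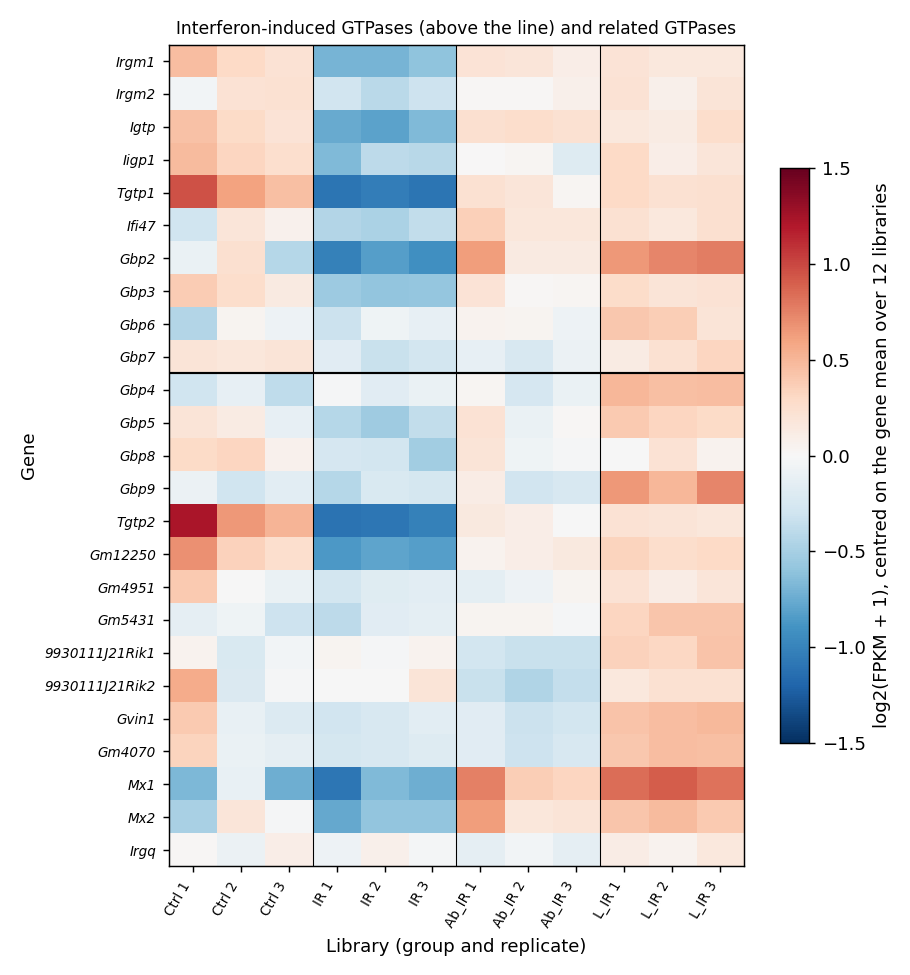
Log2(FPKM + 1) of the 10 members (above the line) and of 15 related GTPases that reached 1 FPKM in a library (rows), centred on each gene's mean, in the 12 libraries (columns). Blue is below and red above the mean. The IR columns are blue for most members and for Tgtp2 and Gm12250, whereas Gbp4, Gbp9, Gvin1 and Gm4070 are red in the L_IR columns.

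Upstream of the GTPases, Ifng, which encodes interferon gamma, was at 1.66, 3.11 and 2.39 FPKM in Ctrl, at 1.88, 3.06 and 2.31 FPKM in IR, at 2.94, 2.44 and 1.86 FPKM in Ab_IR and at 3.61, 4.12 and 3.43 FPKM in L_IR. Ifng thus overlapped among Ctrl, IR and Ab_IR (IR against Ctrl 0.02, adjusted p 0.942) and was higher in L_IR than in IR (log2 difference 0.48, adjusted p 0.013) and than in Ab_IR (adjusted p 0.0178). Ifnb1 was listed at 0 in 11 libraries and at 0.06 FPKM in the other. In the list of 15 ligands and inducing cytokines, of which 7 were analysed, 3 were at 1 FPKM or more in every library of the groups compared, the rule for all counts of lists from here on. In IR 1 of these rose and 1 fell, the latter being Il12a, an interleukin subunit that promotes interferon gamma secretion (log2 difference -1.06, adjusted p 0.00118). In Ab_IR 1 rose and 1 fell against IR, and in L_IR 2 rose and 1 fell. Of 5 receptor chains, 1 rose and 1 fell in IR. Ifngr1, the binding chain for interferon gamma, went from 84.6 ± 1.75 FPKM in Ctrl to 74.0 ± 0.430 FPKM in IR (log2 difference -0.19, adjusted p 0.029), and Ifngr2, the signalling chain, from 6.33 ± 1.01 to 8.90 ± 0.838 FPKM (log2 difference 0.44, adjusted p 0.0289). Against IR, 1 receptor chain rose and 1 fell in Ab_IR, and 3 rose and 2 fell in L_IR. Ifnlr1, a receptor chain for type III interferons, was under 1 FPKM in all Ctrl libraries and at 1.55 to 1.99 FPKM in IR.

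Among 11 signalling kinases, STAT and IRF factors, 6 fell and 2 rose in IR. Irf8, a myeloid and interferon-responsive factor, was at 22.4 to 28.0 FPKM in Ctrl, 7.34 to 7.69 FPKM in IR, 30.15 to 31.51 FPKM in Ab_IR and 32.4 to 32.9 FPKM in L_IR (IR against Ctrl -1.60, adjusted p 6.20e-05). Irf7, which amplifies type I interferon responses, fell by 1.34 (adjusted p 0.00108) and Irf9, a partner of STAT dimers on ISREs, by 0.97 (adjusted p 3.39e-04). Stat3, which transmits cytokine signals, rose by 0.82 (adjusted p 7.87e-04). Irf1, a factor that binds ISREs, was at 17.8 to 21.2 FPKM in Ctrl and 10.2 to 11.1 FPKM in IR (log2 difference -0.83, adjusted p 5.05e-04). In Ab_IR 7 of the 11 rose and 3 fell against IR, and in L_IR 8 rose and 2 fell, with Irf8 at 1.89 and 1.97.

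Genes downstream or alongside were counted too. Of 5 feedback inhibitors, 3 rose and 0 fell in IR, with the phosphatase gene Ptpn1 at 0.93 (adjusted p 3.63e-04). Against IR, 0 rose and 3 fell in Ab_IR and 0 rose and 4 fell in L_IR. Usp18, a brake on type I receptors that was partly under 1 FPKM in IR, was at 2.4 to 5.83 FPKM in Ctrl and 0.77 to 1.59 FPKM in IR. Of 13 genes for ubiquitin and ATG8-type tagging of vacuoles, which recruits these GTPases, 1 rose and 3 fell in IR, 3 rose and 5 fell in Ab_IR against IR and 4 rose and 6 fell in L_IR against IR. Of 7 inflammasome genes, 2 rose and 2 fell in IR. Nlrp3, an inflammasome sensor, fell by 1.199 in IR (adjusted p 3.16e-04), and Casp4, the caspase that binds lipopolysaccharide freed with the help of guanylate-binding proteins, rose by 0.80 (adjusted p 0.0015). Against IR, 2 rose and 2 fell in Ab_IR, and 2 rose and 3 fell in L_IR.

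Other interferon targets were counted last. Of 13 further interferon gamma targets, 6 fell, 1 rose and 6 did not pass in IR, where 25.5% of all rows fell. Tap1, the peptide transporter of MHC class I loading, was at 34.1 ± 0.901 FPKM in Ctrl and 13.6 ± 0.320 FPKM in IR (log2 difference -1.26, adjusted p 3.03e-05). Nos2, which encodes inducible nitric oxide synthase, was tested only through IR, at 2.97 to 3.7 FPKM, and stood at 0 to 0.79 FPKM in Ctrl. Of 14 type I interferon targets, 11 fell and 0 rose, with Xaf1 at -1.51 (adjusted p 2.56e-04). Against IR, 10 of 14 gamma targets rose and 2 fell in Ab_IR and 11 rose and 2 fell in L_IR, and of 14 type I targets 11 rose and 0 fell in Ab_IR and 12 rose and 1 fell in L_IR. The share of all rows that passed in either direction was 43.1% in IR against Ctrl, 68.7% in Ab_IR against IR and 66.8% in L_IR against IR. By direction, 25.5% of rows fell in IR against Ctrl, 39.4% rose in Ab_IR against IR and 40.8% rose in L_IR against IR. These shares also stand beside the counts of the marker lists below in the same comparisons.

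Markers of other cells moved with the groups as well. Macrophages express interferon-induced GTPases, and the summed level of 11 macrophage markers was 92.95 to 99.75 FPKM in Ctrl, 64.92 to 75.47 FPKM in IR, 113.64 to 122.14 FPKM in Ab_IR and 107.46 to 126.85 FPKM in L_IR. IR was lowest, as for the member sums. By the same rule 5 of 8 macrophage markers fell and 1 rose in IR, 7 of 8 rose and 0 fell in Ab_IR against IR, and 7 of 9 rose and 0 fell in L_IR against IR. The sum of 7 markers of plasmacytoid dendritic cells, which secrete type I interferon, was 56.4 to 64.86 FPKM in Ctrl, 40.91 to 48.09 FPKM in IR, 60.2 to 63.17 FPKM in Ab_IR and 63.06 to 66.97 FPKM in L_IR, with Ccr9 and Klk1 under 1 FPKM throughout. Bst2, which is also a type I interferon target and counted in that list, supplied most of this sum, with 37.4 of it in Ctrl on average. Siglech, a more restricted marker, averaged 2.89 FPKM in Ctrl, 0.323 FPKM in IR, 1.72 FPKM in Ab_IR and 1.49 FPKM in L_IR. Of the 4 other markers at 1 FPKM or more, Bst2 included, 3 fell in IR, 2 rose in Ab_IR and 3 rose in L_IR against IR. No marker of these lists was at 0 in all libraries. The sum of 11 markers of T and NK cells, the main sources of interferon gamma, was 173.63 to 289.75 FPKM in Ctrl, 231.88 to 235.95 FPKM in IR, 290.25 to 296.55 FPKM in Ab_IR and 256.51 to 264.11 FPKM in L_IR, where the lowest Ctrl value was that of replicate 1. Nkg7, a cytotoxic granule gene, made up most of this sum, with group means of 209 to 266 FPKM. Marker by marker, 1 of 5 fell in IR against Ctrl, 3 of 6 rose and 1 fell in Ab_IR against IR, and 5 of 6 rose in L_IR against IR. Between Ab_IR and L_IR the sum and the single markers went opposite ways, since 6 of 8 were lower in Ab_IR and 1, Nkg7, was higher (median log2 difference -0.54).

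HSC markers moved with the groups too, at a summed 80.51 to 87.92 FPKM in Ctrl, 70.59 to 78.3 FPKM in IR, 77.8 to 84.75 FPKM in Ab_IR and 84.84 to 85.81 FPKM in L_IR. Of 4 at 1 FPKM or more, Gata2 (16.5 to 5.14 FPKM) and Kit (23.5 to 6.87 FPKM) fell in IR and Ly6a rose (35.1 to 58.6 FPKM). Ly6a supplied most of the mean sum of 75.28 FPKM in IR, and less of that of 85.08 FPKM in Ctrl. The sum therefore hides much of the fall of Gata2 and Kit. Against IR, 2 rose and 2 fell in Ab_IR and in L_IR. Gata2 averaged 17.0 and 14.1 FPKM in Ab_IR and L_IR, Kit 18.15 and 17.9 FPKM, and Ly6a 38.1 and 45.55 FPKM.

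Shifts in other lineages were larger. Erythroid, megakaryocyte, and eosinophil, basophil and mast cell markers summed in IR to 442.17 to 453.09, 12.92 to 15.15 and 444.67 to 454.04 FPKM, against 2465.41 to 3017.03, 61.38 to 73.22 and 4584.68 to 6081.77 FPKM in Ctrl. In Ab_IR these sums were 2559.92 to 2763.73, 145.09 to 148.02 and 6587.18 to 6722.06 FPKM. In L_IR they were 1312.74 to 1367.91, 88.7 to 94.67 and 2839.17 to 2882.29 FPKM. IR was thus lowest in each of these lists, as it was for the members. Endothelium and stroma markers were at 14.28 to 15.03 FPKM in IR and 135.79 to 161.24 FPKM in Ctrl, with Emcn and Lepr under 1 FPKM throughout. They were at 48.23 to 53.22 FPKM in Ab_IR and 48.47 to 50.03 FPKM in L_IR. Neutrophil and monocyte, plasma cell and B cell markers were higher in IR than in Ctrl, at 16151.98 to 16419.44, 17433.47 to 18648.88 and 337.96 to 367.97 FPKM against 10996.48 to 12750.7, 10041.77 to 13249.96 and 144.11 to 156.27 FPKM, though the B cell genes Ms4a1, Pax5 and Ebf1 stayed under 1 FPKM. Ab_IR sums of these lists were 11904.11 to 12485.44, 17849.38 to 18478.23 and 236.57 to 248.59 FPKM. L_IR sums were 8838.94 to 9055.49, 25587.84 to 26459.43 and 301.24 to 307.83 FPKM. The heart list followed the Nppa split, at 1.24 FPKM in Ctrl replicate 1 and 0.87 to 1.12 FPKM in Ab_IR and L_IR against 120.93 to 154.42 FPKM in the other 5 libraries. The part of these shifts in the levels of the interferon-induced GTPases was not tested.

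**Figure D5:**
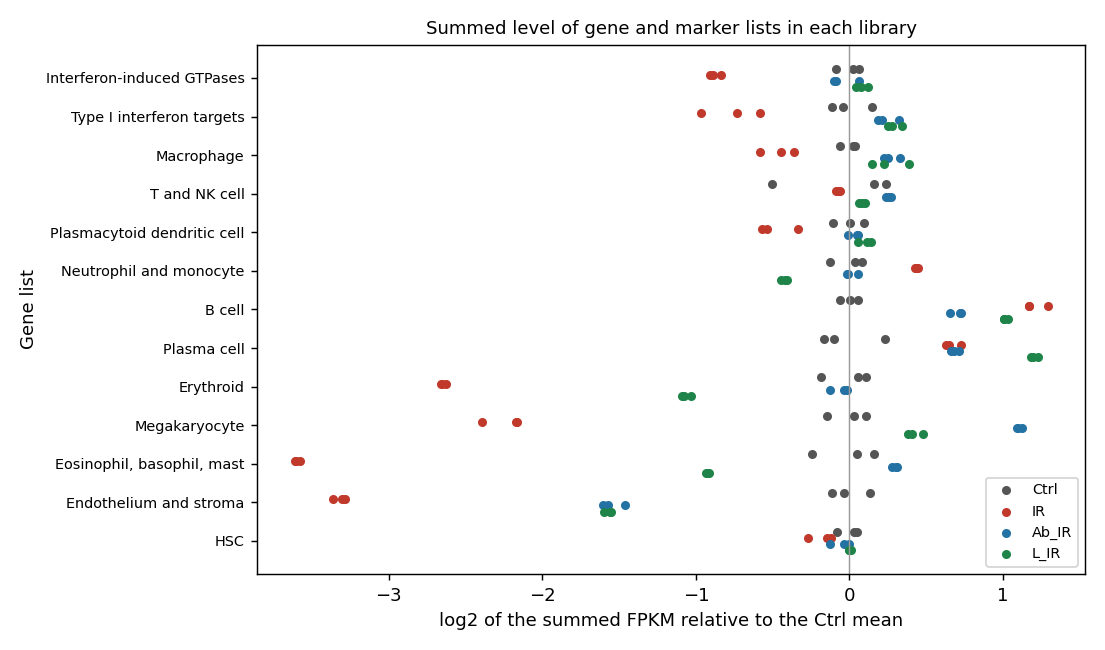
Summed FPKM of gene and marker lists in each library relative to the Ctrl mean of that list, on a log2 scale (x axis), with 1 row per list and 3 points per group. The IR points of the interferon-induced GTPases, the type I targets, the macrophage list and the plasmacytoid dendritic cell list lie below 0, as do those of the erythroid, megakaryocyte, eosinophil and stroma lists, while those of the neutrophil, B cell and plasma cell lists lie above 0.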

How the data were processed

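RNA from sorted cells was made into stranded mRNA libraries, per the labels. The submitters' processing notes name fastp, HISAT2 and StringTie with GRCm38/mm10, whereas the study's methods name RSEM, so the quantifier is uncertain. The deposited values are FPKM per gene as the authors computed them, with sums of 344338 to 405123 per library. FPKM are not counts, so limma 3.58.1 in R 4.3.3 (lmFit and trended eBayes) was run on log2 values after adding a pseudocount of 1, with the libraries of both groups in a comparison. A row was tested when 3 or more of those libraries reached 1 FPKM. Adjusted p-values are Benjamini-Hochberg over all rows tested. The members and gene lists were chosen with earlier results of these data known. All members were named, and from other lists up to 4 genes with the largest differences. The 5 genes nearest the members' mean profile, predicted-gene names left out, were named by root mean square difference. Ifng, Ifnb1, Ifngr1, Ifngr2, Irf1 and Mx1 were named in addition, chosen after their values were seen. Scripts were tested on simulated data. Motifs, 50-base stretches and sums were counted in Python 3.11.15, and figures drawn with matplotlib 3.10.9. Some items are not reported here.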

Additional observations from a re-analysis of the deposited data

How the results depend on the processing

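Sequencing depth is unknown, so counting error could not be set beside any value. Under other settings, 139 values of single members in IR against Ctrl kept direction and side of the threshold and 9 lost the call, 8 of them for Ifi47 and 1 for Irgm2 (quantile normalization, adjusted p 0.0522). In L_IR against IR 163 kept them and 1 lost the call, and in Ab_IR against IR 131 kept them and 1 changed sign. The number of members past both thresholds was 2 in IR against Ctrl, but 4 with a pseudocount of 0.1, and 1 at a mean of at least 10 FPKM (4 members tested), with median ratio scaling, with the Nppa term or without immunoglobulin genes, and 1 to 3 with a library left out. It was 2 in Ab_IR against IR and in L_IR against IR, but 3 in each with a pseudocount of 0.1, 1 in each at a mean of at least 10 FPKM, and 2 to 3 and 2, respectively, with a library left out. The number past an adjusted p of 0.05, 9, 7 and 10 in these comparisons, includes Iigp1 in the first and Iigp1 and Gbp6 in the last, which passed the filter only through the group where they are high, and is 8, 7 and 8 without them. It was 4 in each at a mean of at least 10 FPKM, where 4 members were tested, so this count could not be higher. In Ab_IR against L_IR it was 3, but 1 with low rows kept, with rows under a mean of 10 FPKM dropped, or with all 12 libraries fitted, 7 without immunoglobulin genes and 1 to 4 with a library left out. In Ab_IR against Ctrl it was 0, but 3 with all 12 libraries, 7 with the Nppa term and 0 to 1 with a library left out. In L_IR against Ctrl it was 1, but 0 without a filter, 3 with all 12 libraries, 7 with the Nppa term and 0 to 2 with a library left out. Some of these counts include Gbp6 or Iigp1, which were tested mainly through the group where they are high.

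Directions reversed for differences that passed no test. Without immunoglobulin genes these were Gbp7 in Ab_IR against IR (-0.023), Igtp (-0.077) and Ifi47 (-0.114) in Ab_IR against L_IR, and Gbp3 in L_IR against Ctrl (0.045). Ifi47 in Ab_IR against L_IR was -0.029 under quantile normalization, and Irgm2 in Ab_IR against Ctrl was 0.078 with the Nppa term. With a library left out, Irgm1 and Ifi47 in Ab_IR against L_IR ranged from -0.036 to 0.02 and from -0.037 to 0.057. Gbp3, Gbp7 and Irgm2 in L_IR against Ctrl ranged from -0.09 to 0.034, -0.009 to 0.091 and -0.068 to 0.069, and Igtp in Ab_IR against Ctrl from -0.115 to 0.004, the latter without Ctrl replicate 1. The cause was not tested.

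Replicate numbers gave no sign of pairing the libraries, since correlations of same-numbered libraries ranged from -0.27 to 0.22 and exceeded 0.1 throughout in 0 of 6 comparisons. With 3 libraries per group such correlations can miss a shared effect, and the labels do not say whether libraries were paired. With the replicate number as a block, the counts past both thresholds stayed at 2 in IR against Ctrl and in both comparisons with IR, and at 0 in the others. The block took the adjusted p of Ifi47 in IR against Ctrl to 0.0528, of Gbp2 in Ab_IR against L_IR to 0.0512 and of Gbp2 in L_IR against Ctrl to 0.0618, leaving 0 members past the threshold there.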
